A study of Mus musculus with 2 samples.

Results

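The protein subunits of the mitochondrial respiratory chain were measured as RNA in sorted mouse bone marrow cells, with the genes grouped by the genome that encodes them. Members were taken by symbol from the feature table, and 110 of its 31053 genes matched. They are 84 nuclear genes of subunits, all 13 protein genes of mitochondrial DNA, and 13 nuclear assembly factors or related genes whose names share the same stems. One symbol, Atp5o, stands on 2 rows, so there are 109 distinct symbols. By complex, assigned by symbol, the nuclear subunits number 38 in complex I, 4 in complex II, 8 in complex III, 18 in complex IV and 16 in complex V, and the mitochondrial ones 7, none, 1, 3 and 2.

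The cells were LSK cells, the lineage-negative fraction of bone marrow positive for Sca1 and c-Kit, which holds stem cells and multipotent progenitors. All mice were C57BL/6J and 6 to 8 weeks old. One library came from untreated mice and 1 from mice given 5.0 Gy to the whole body and sampled on day 15. No genetic alteration is given for either group, and the number of mice behind each library is not given in the sources used here. With 1 library a group there is no replicate check and no test: each value below is given for both libraries, and the 95% intervals cover counting error only.

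Oxidative phosphorylation passes electrons from complexes I and II through ubiquinone to complex III, and from there through cytochrome c to complex IV, which reduces oxygen. The proton gradient made on the way drives ATP synthesis by complex V. All complexes but complex II are assembled from subunits made in the cytosol from nuclear genes together with subunits made inside the organelle from mitochondrial DNA, so that the 2 genomes must supply parts of the same machines. Haematopoietic stem cells are known for a largely glycolytic metabolism, and the shift to cycling and differentiating progenitors is accompanied by greater use of oxidative phosphorylation.

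The mitochondrial members lie on both strands of mitochondrial DNA (mm10), and pairs of them overlap. The end of mt-Atp8, a small ATP synthase subunit, and the start of mt-Atp6, the subunit that lines the proton path, share 43 bases, and mt-Nd4l and mt-Nd4, both membrane subunits of complex I, share 7. These joints are shown because mt-Atp8 and mt-Nd4l, the upstream member of each pair, stood apart from the other mitochondrial genes. The genes of each pair are carried on a shared mRNA, so their counts are not separate RNA levels. How UMIs of such an mRNA fall on its genes was not tested. Capitals mark the bases that belong to both genes, read from GENCODE transcripts at chrM:7897-7969 and chrM:10137-10173, + strand.
mt-Atp8 end: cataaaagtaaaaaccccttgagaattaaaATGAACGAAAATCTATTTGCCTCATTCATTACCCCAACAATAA
mt-Nd4l end: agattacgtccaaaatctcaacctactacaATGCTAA

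For nuclear members, promoters were read from RefSeq (GRCm38.p6) for 64 of the 77 subunits measured above the expression filter. Capitals mark matches, on either strand, to 3 letter strings that stand for factors known to act on respiratory genes: GCGCATGC for NRF1, CCGGAAG for GABP and other ETS factors, and AAGATGGC for YY1. The whole RefSeq promoter window was searched, and each run below shows its 130 bases before and 30 after the start. Atp5k (chr5:108434370-108434529, - strand) encodes ATP synthase subunit e and had the highest ratio of irradiated to control of the subunits above the filter. Uqcr11 (chr10:80406792-80406951, - strand) and Sdhb (chr4:140961141-140961300, + strand) are further genes with a higher level in the irradiated library, and Uqcrh (chr4:116075041-116075200, - strand), the complex III hinge subunit, was level between libraries.
Atp5k: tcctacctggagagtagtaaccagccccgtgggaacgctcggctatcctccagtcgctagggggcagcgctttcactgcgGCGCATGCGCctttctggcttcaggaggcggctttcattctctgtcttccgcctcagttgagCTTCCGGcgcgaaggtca
Uqcr11: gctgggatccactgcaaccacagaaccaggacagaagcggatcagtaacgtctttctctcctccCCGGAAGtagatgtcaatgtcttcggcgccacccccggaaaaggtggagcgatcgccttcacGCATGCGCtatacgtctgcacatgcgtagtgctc
Sdhb: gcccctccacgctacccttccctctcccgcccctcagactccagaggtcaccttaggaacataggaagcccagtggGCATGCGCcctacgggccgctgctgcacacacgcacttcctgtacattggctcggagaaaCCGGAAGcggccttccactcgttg
Uqcrh: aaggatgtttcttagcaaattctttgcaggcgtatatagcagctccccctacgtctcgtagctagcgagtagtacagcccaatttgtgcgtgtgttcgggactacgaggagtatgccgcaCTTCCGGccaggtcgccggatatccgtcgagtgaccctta

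In Atp5k the NRF1 string is met on both strands in overlapping positions. Any of the 3 strings occurred in 28 of the 64 promoters (43.8%) and in 13.8% of all 27025 promoters of the same length. The 27025 were not limited to genes above the expression filter, as the 64 were, so these shares compare unlike sets. The NRF1 string was in 10 member promoters (15.6%, against 2.80% of all), the GABP string in 15 (23.4%, against 9.12%) and the YY1 string in 8 (12.5%, against 2.88%). The median log2 ratio of irradiated to control was 0.45 for members with a match and 0.40 for those without. Uqcrh carries a GABP string and was level between libraries, so a match did not go with a higher level in each case. Each promoter shown carries a match, but Ndufa1 (log2 0.71), Atp5g1 (0.71) and Uqcr10 (0.68) had none. Ndufa6 (0.12) and Atp5g2 (0.18), with low ratios, carry the NRF1 string. A match is a description of letters and not a binding site.

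Kept cells numbered 7190 of 7686 barcodes in the control library and 5109 of 5596 in the irradiated one, with 138149626 and 162622685 unique molecular identifiers (UMIs, each standing for 1 captured RNA molecule). Cells were deeper in the irradiated library, at a median of 29618 UMIs against 16084.5. The libraries share 16 barcodes. Cells called G1 made up 48.5% of the control and 20.3% of the irradiated library. RNAs of the gate were present: Kit stood at 132 and 73.6 UMIs scaled to a library total of 1000000 (CPM) and Ly6a, which encodes Sca1, at 156 and 218. Some RNAs of lineage cells were present too. Cd3e of T cells stood at 0.0579 and 0.0553 CPM. The 7 T/NK lineage markers summed to 204 and 317 CPM, but only 1 of these 7 passed the expression filter. In the 4 progenitor classes named below, the same sum lay between 167.6 and 393.7 CPM. It is therefore not a measure of T/NK cells. The 7 B lineage markers summed to 154 and 58.9 CPM. Itgam was detected in 15.9% and 15.3% of cells, and Hbb-bs in 2.36% and 9.79%. Summed CPM of the 6 macrophage markers was 3.74 and 4.71, that of the 7 mature neutrophil markers 340 and 42.6, and none of the listed markers was at 0 in both libraries. Among 6 measured RNAs listed for RNA quality and handling, 4 were lower and 2 higher in the irradiated library: Hba-a1 stood at 12.8 and 39.4 CPM and Hbb-bt at 37.2 and 80.5, while Neat1 stood at 268 and 198, Malat1 stood at 8274 and 3963 CPM, Fos at 1050 and 513 and Jun at 919 and 466; the part of these differences in the results below was not tested.

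Nuclear subunit RNA made up a larger share of the irradiated library, and mitochondrial subunit RNA a smaller one. The summed nuclear subunits were 2.39% of UMIs in the control and 3.18% in the irradiated library, a log2 ratio of 0.41. The 13 mitochondrial genes summed to 4.23% and 3.13%, a log2 ratio of -0.44 (interval -0.44 to -0.43). Mitochondrial subunit UMIs therefore outnumbered nuclear ones 1.77 to 1 in the control library and stood at 0.983 to 1 in the irradiated one, a ratio 1.80-fold lower (log2 -0.85). In bulk sums of this kind, a change in the mix of cells and a change within cells cannot be told apart. When the irradiated library was reweighted to the cluster mix of the control library, the log2 ratio was -0.54, and among cells of 10000 to 30000 UMIs it was -0.55.

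Gene by gene, the filter was a mean of at least 20 CPM, and a gene was called higher or lower in the irradiated library where the larger CPM exceeded the smaller by at least 25%. Of the 77 measured nuclear subunits, 53 were higher and 2 lower in the irradiated library, and 75 lay above a ratio of 1. Over all 5247 measured genes, 21.1% were called higher and 20.4% lower. The median log2 ratio was 0.40 for the nuclear subunits and 0.02 for all measured genes. With the control cluster mix 21 of 77 were higher and 0 lower, against 6.35% and 8.56% of all measured genes. Among cells of 10000 to 30000 UMIs 25 of 77 were higher and 0 lower, against 9.13% and 12.3%. Of the 13 mitochondrial genes, 8 were lower and 0 higher, with a median of -0.38; 3 were lower with the control cluster mix and 2 in that depth range. Scaling to the median ratio over all detected genes, which lay at -0.21 on the CPM scale, left the summed mitochondrial genes lower (-0.22), but 0 of the 13 were then called lower and mt-Atp8 and mt-Nd4l were called higher. On that scale 72 of the 77 nuclear subunits were higher and 0 lower, against 41.0% and 10.3% of all measured genes.

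**Figure D1:**
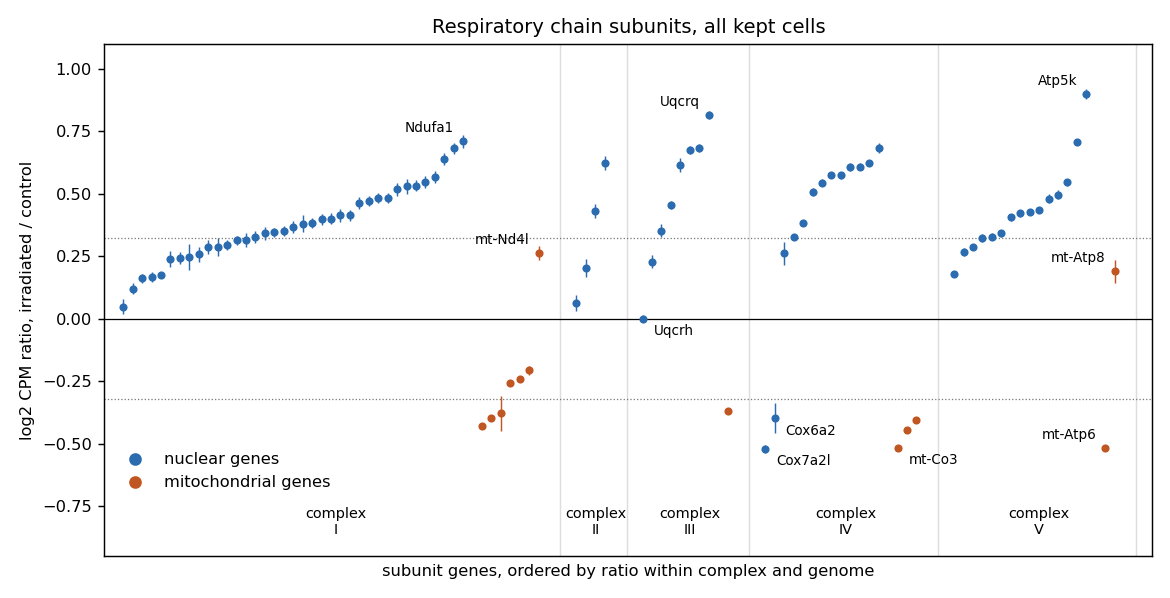
Each point is 1 measured subunit gene, ordered by its log2 CPM ratio of irradiated to control within complex and genome (blue nuclear, orange mitochondrial); bars are exact 95% counting intervals and dotted lines mark a difference of 25%. Nuclear genes lie mostly above 0, led by Atp5k at 0.90, and 11 of the 13 mitochondrial genes lie below it.

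Complex I, the NADH dehydrogenase, was measured through 37 of the 38 nuclear subunits named for it, and all 37 lay above a ratio of 1, with 23 called higher and none lower. These include Ndufa4, which is a component of complex IV and is counted here by its name. Their sum was 7528 CPM in the control and 9665 CPM in the irradiated library. The highest were small accessory subunits: Ndufa1 stood at 142 and 232 CPM (log2 0.71), Ndufc1 at 191 and 307 (0.68) and Ndufa5 at 139 and 217 (0.64). The 7 core subunits, which carry the flavin and the iron-sulfur clusters, summed to a log2 ratio of 0.30, with 3 called higher, and the accessory subunits to 0.37, with 20 of 30 called higher. The lowest ratios were Ndufs4, an accessory subunit at the electron-input arm, at 117 and 121 CPM (0.05), Ndufa6 at 241 and 262 (0.12) and Ndufa7 at 306 and 343 (0.16).

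The 7 mitochondrial subunits of complex I, all of them in its membrane arm, summed to 7087 CPM in the control and 5700 CPM in the irradiated library (log2 -0.31). Called lower were mt-Nd2 at 1484 and 1102 CPM (-0.43), mt-Nd4 at 1959 and 1488 (-0.40) and mt-Nd6 at 24.6 and 18.9 (-0.38). mt-Nd6 is the one protein gene read from the other strand, and its values rest on 3392 and 3073 UMIs. Values within the 25% limit were those of mt-Nd1 at 2508 and 2097 CPM (-0.26), mt-Nd3 at 625 and 529 (-0.24) and mt-Nd5 at 363 and 315 (-0.21). Relative to the median ratio of all detected genes mt-Nd5 stood at 0.01, so its direction rests on the scaling. On that scale mt-Nd1 and mt-Nd3 were near 0 as well, at -0.04 and -0.03. mt-Nd4l, carried on the same mRNA as its neighbour mt-Nd4, was counted at 125 and 150 CPM (0.26).

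Complex II, succinate dehydrogenase, has no mitochondrial gene, and all 4 of its genes lay above a ratio of 1. The membrane anchor Sdhd was at 105 and 162 CPM (log2 0.62) and the iron-sulfur subunit Sdhb at 121 and 164 (0.43), both called higher. The other anchor Sdhc stood at 77.0 and 88.7 CPM (0.21), and the flavoprotein Sdha at 102 and 107 (0.06), within the 25% limit. Beside them, the assembly factors Sdhaf4, which acts on the flavoprotein, and Sdhaf1, which acts on the iron-sulfur subunit, stood at -0.22 and -0.19. Of the 10 assembly factors and related genes of the 13 that passed the filter, 4 were higher and none lower.

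Complex III, the cytochrome bc1 complex, had 6 of its 8 nuclear subunits called higher. Uqcrq (chr11:53427922-53430831), a small subunit next to cytochrome b, stood at 309 and 543 CPM (log2 0.82), Uqcr11 at 371 and 596 (0.68) and Uqcr10 at 336 and 538 (0.68). The Rieske iron-sulfur protein Uqcrfs1 stood at 143 and 183 CPM (0.35) and the core protein Uqcrc2 at 151 and 177 (0.23). Uqcrh was at 691 CPM in the control and 692 CPM in the irradiated library, with an interval for the log2 ratio of -0.01 to 0.01. mt-Cytb, cytochrome b itself and the one mitochondrial member, was at 4200 and 3256 CPM (-0.37).

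Complex IV, cytochrome c oxidase, showed both directions among its nuclear genes: 10 of 13 measured were higher and 2 lower. Cox6a1, the common form of subunit VIa, stood at 186 and 300 CPM (log2 0.68), Cox7c at 695 and 1071 (0.63) and Cox7a2 at 393 and 600 (0.61). Cox7a2l (chr17:83501918-83517330) had the lowest ratio of the nuclear subunits above the filter, at 421 and 293 CPM (-0.52, interval -0.54 to -0.50). Cox7a2l is known for joining complexes III and IV into supercomplexes, and C57BL/6 mice are known to carry a shortened form of its protein. Cox6a2 (chr7:128205435-128206387), the form of subunit VIa known from heart and skeletal muscle, was at 34.1 and 25.8 CPM (-0.40), and Cox6b2, known from testis, at 49.5 and 59.3 (0.26).

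The 3 mitochondrial genes of complex IV encode its catalytic core and held 2.25% of all control UMIs and 1.64% of all irradiated UMIs. mt-Co3 stood at 9019 and 6308 CPM (log2 -0.52), mt-Co1 at 7197 and 5286 (-0.45) and mt-Co2 at 6325 and 4776 (-0.41). All 3 were called lower, while the nuclear subunits of the same complex summed to 6134 and 8421 CPM (0.46).

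Several tissue-restricted forms of nuclear subunits were at the edge of detection. Cox4i2, known from lung and low oxygen, was at 3.93 and 7.34 CPM and Cox7a1, known from muscle, at 1.36 and 2.42, both under the filter. Ndufa4l2, Cox8b and the other Atp5o row had 1 UMI each in the control library and none in the irradiated one, Cox7b2 had 3 and none, and Cox8c had none in either. Of their common counterparts, Cox4i1 stood at 871 and 1093 CPM (log2 0.33), Cox8a at 973 and 1271 (0.38) and Cox6b1 at 463 and 690 (0.58). Ndufa4, named for complex I but a component of complex IV, was at 972 and 1098 CPM (0.18), within the 25% limit. With Ndufa4 counted in complex IV, the log2 ratio of the nuclear sum was 0.39 rather than 0.36 for complex I. For complex IV it was 0.42 rather than 0.46.

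Complex V, the ATP synthase, had 15 of its 16 nuclear genes measured, of which 12 were higher and none lower. Atp5k (ENSMUSG00000050856, chr5:108433244-108434448) was at 232 CPM in the control and 432 CPM in the irradiated library (log2 0.90, interval 0.88 to 0.92). The 3 genes of subunit c, which make the same mature protein of the rotor ring, differed in their ratios: Atp5g1 stood at 490 and 800 CPM (0.71), Atp5g3 at 264 and 373 (0.50) and Atp5g2 at 815 and 923 (0.18). Atp5j2, subunit f, was at 484 and 708 CPM (0.55), Atp5h, subunit d, at 569 and 695 (0.29) and Atp5d, the delta subunit, at 385 and 463 (0.27).

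The 2 mitochondrial genes of complex V had ratios on either side of 1, though they share an mRNA and their counts are not separate RNA levels. mt-Atp6 stood at 8464 and 5924 CPM (log2 -0.51), and mt-Atp8 at 49.97 and 57.0 (0.19). mt-Atp8 and mt-Nd4l, the upstream members of the overlapping pairs shown above, were the only mitochondrial genes whose ratio lay above 1; their values rest on 6903 and 9274, and 17250 and 24348 UMIs.

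Nuclear copies of mitochondrial DNA can carry the same sequence, which bears on how reads are assigned. All 50-base windows of mt-Co2 recur in another GENCODE transcript, as do 99.9% of those of mt-Co3, 99.5% of mt-Atp6, 98.8% of mt-Nd4l and 98.0% of mt-Nd3. No window of mt-Nd1, mt-Cytb, mt-Nd6 or mt-Atp8 does. The share was 51.1% for mt-Co1, 62.2% for mt-Nd4, 8.19% for mt-Nd2 and 7.61% for mt-Nd5. Among the windows nearest the 3' end it was 100%, 0%, 32% and 2% in the same order. The genes holding these copies are not among the rows of the feature table, so they have no counts of their own. How reads from copied stretches were assigned cannot be read from the counts. Of the 4 genes with no such copy, mt-Nd1, mt-Cytb and mt-Nd6 were at -0.26, -0.37 and -0.38, and mt-Atp8 at 0.19. The part of the copies in these values was not tested.

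Short genes stood out among the nuclear members. Over the 77 nuclear subunits, Spearman's rho between coding length and log2 ratio was -0.43, with medians of 0.58 for the 19 genes up to 300 coding bases, 0.40 for the 38 between, and 0.33 for the 20 beyond 600. Over the 5198 of 5247 measured genes with a length, rho was -0.30, with a median of 0.23 for 169 genes in the shortest group and -0.01 for 4142 in the longest. Over the subunits, rho was -0.38 in HSC-like, -0.46 in lymphoid-primed-like, -0.34 in megakaryocyte-primed-like and -0.58 in neutrophil-primed-like cells, with no value over all genes computed within classes. These values are across genes of the same 2 libraries, and genes are not independent replicates.

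Whether the shift lay in the mix of cells was examined in clusters built without respiratory member, mitochondrial, ribosomal, cell cycle or sex-linked genes. Clusters were named from lists of marker genes, and 4 classes held at least 100 cells in each library. The HSC-like class (Hlf, Procr, Mecom, Mllt3) held 1971 control and 317 irradiated cells, the lymphoid-primed-like class (Dntt, Flt3, Satb1) 1924 and 287, the megakaryocyte-primed-like class (Pf4, Itga2b, Gp9) 192 and 493, and the neutrophil-primed-like class (Elane, Mpo, Ms4a3) 118 and 1092. The mix of cells thus differed strongly between libraries.

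In all 4 classes the mitochondrial share was lower and the nuclear share higher in the irradiated library, by differing amounts. In neutrophil-primed-like cells the log2 ratio of the mitochondrial sum was -0.10, and -0.02 with each cell weighted equally; in HSC-like cells that of the nuclear sum was 0.24, and 0.10 with 30 neighbours from all cells. In HSC-like cells there were 2.37 mitochondrial UMIs per nuclear subunit UMI in the control and 1.65 in the irradiated library (log2 -0.53, interval -0.54 to -0.51). In lymphoid-primed-like cells the ratio was 2.15 and 1.49 (-0.52), and in megakaryocyte-primed-like cells 1.63 and 1.12 (-0.53). In neutrophil-primed-like cells it was 0.880 and 0.747 (-0.24). The order of the classes was the same in both libraries, with HSC-like cells highest and neutrophil-primed-like cells lowest.

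The neutrophil-primed-like value is the least settled. The 7 mature neutrophil markers summed to 9146 CPM in its control cells and 117 CPM in its irradiated cells, and 13 of the 118 control cells had 1% or more of their UMIs from them, against 2 of 1092. Without those cells the log2 ratio was -0.21. With a different neighbour graph it was -0.49, with each cell named by its own markers -0.41, and its range over all alternatives was -0.49 to -0.21. In the other 3 classes the mature neutrophil markers summed to between 6.47 and 35.0 CPM.

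**Figure D2:**
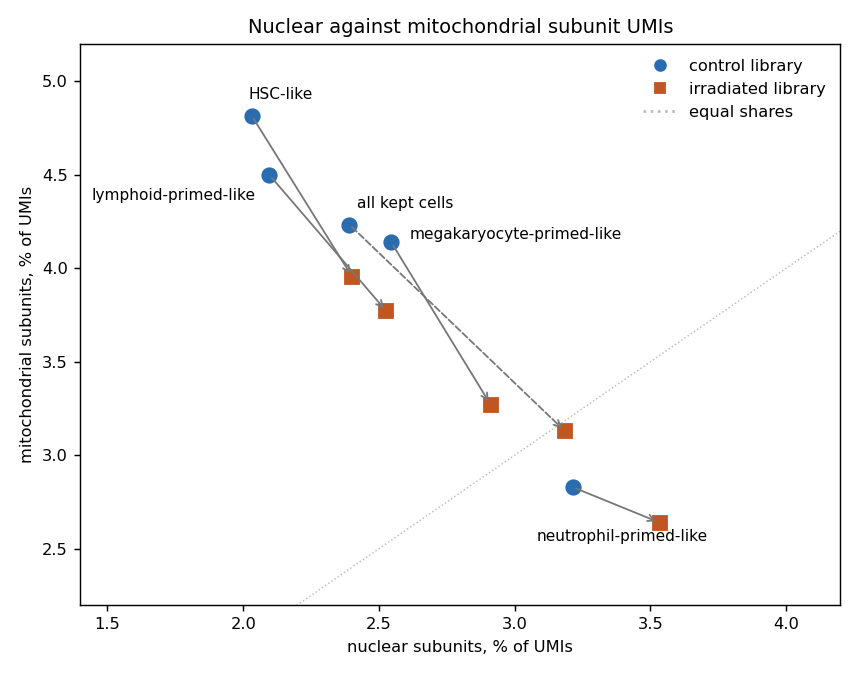
Share of UMIs in nuclear subunits (horizontal) against mitochondrial subunits (vertical) for all kept cells and the 4 named classes; arrows run from the control library (blue circle) to the irradiated one (orange square), and the dotted line marks equal shares. Each arrow points down and to the right, and that of neutrophil-primed-like cells, from 2.83% to 2.64% mitochondrial, is the shortest.

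Named subunits kept their place in the classes to different degrees. In HSC-like cells 16 of 76 measured nuclear subunits were higher and none lower, against 8.35% and 9.43% of all measured genes. In lymphoid-primed-like cells 27 of 77 were higher and none lower, against 10.9% and 11.5%. In megakaryocyte-primed-like cells 11 of 76 were higher and none lower, against 6.48% and 12.3%. In neutrophil-primed-like cells 4 of 76 were higher and none lower, against 5.76% and 6.95%, a share near that of all genes. Those 4 were Atp5k (log2 0.40), Ndufc1 (0.36), Ndufa5 (0.35) and Cox7c (0.35).

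Atp5k, Ndufc1 and Cox7c passed the ratio in all 4 classes. Atp5k had 176 and 254 CPM in the HSC-like class (log2 0.53), at 171 and 273 in lymphoid-primed-like cells (0.68), at 278 and 400 in megakaryocyte-primed-like cells (0.53) and at 391 and 517 in neutrophil-primed-like cells. Ndufa1 passed in 3 classes, at 0.69, 0.58 and 0.54 in the same order, and stood at 0.18 in neutrophil-primed-like cells. Atp5g1, at 0.71 over all cells, had 347 and 349 CPM in the HSC-like class (0.01) and between 0.20 and 0.26 in the other 3. Its level in neutrophil-primed-like cells was 892 and 1024 CPM.

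Cox7a2l, the nuclear subunit above the filter with the lowest ratio over all cells, was within the 25% limit in each class. Its CPM was 503 and 446 in the HSC-like class (log2 -0.17), at 523 and 457 in lymphoid-primed-like cells (-0.20), at 383 and 327 in megakaryocyte-primed-like cells (-0.23) and at 228 and 224 in neutrophil-primed-like cells (-0.03). Its ratio lay below 1 in each class, with the counting interval of the log2 ratio below 0 in 3 of them. Its level was lowest in neutrophil-primed-like cells, which were 118 of 7190 control cells and 1092 of 5109 irradiated cells. The part of the mix of cells in its ratio over all cells was not tested.

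Cox6a2 was uneven between kinds of cell. In lymphoid-primed-like cells it was higher in the irradiated library, at 61.9 and 167 CPM (log2 1.43, interval 1.32 to 1.55), the reverse of its direction over all cells. The makeup of that class differed as well: its B lineage markers summed to 50.8 and 114 CPM and its HSC markers to 301 and 159. With 30 neighbours from all cells, a cluster led by Dntt and Ccr9, of 896 and 173 cells, had Cox6a2 at 115.7 and 248.9 CPM (1.105, interval 0.98 to 1.23), while a Gm32554 and Ccl3 cluster of 1374 and 26 cells had 70 and 3 UMIs. The part of this makeup in the difference was not tested. It was at 0.936 and 0.222 CPM in HSC-like cells, from 24 UMIs and 1 UMI, and at 4.40 and 1.33 in megakaryocyte-primed-like cells. In an unnamed cluster led by Irf8, Ly86 and Csf1r, of 451 and 637 cells, it was at 68.1 and 42.8 CPM. In another small cluster led by H2-Eb1, Cd74 and Xcr1, of 27 and 73 cells, it was at 763 and 18.5 CPM, from 281 and 24 UMIs. Those cells were not of 1 kind: with 30 neighbours taken from all cells, an H2-Eb1 and Xcr1 cluster held 4 control and 60 irradiated cells, with 0 and 7 UMIs of Cox6a2, and a Siglech and Ly6d cluster held 20 and 10, with 281 and 14.

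In HSC-like cells Cox6b2 had 54.8 and 86.9 CPM (log2 0.66), and at -0.04, -0.18 and -0.02 in lymphoid-primed-like, megakaryocyte-primed-like and neutrophil-primed-like cells. Of complex II, Sdhb was at 0.50, 0.54, 0.30 and 0.11 in the 4 classes, Sdhd at 0.36, 0.41, 0.30 and 0.11, Sdhc at 0.09, 0.22, 0.19 and -0.05 and Sdha at -0.05, 0.01, 0.03 and -0.07. Only Sdhb and Sdhd in HSC-like and lymphoid-primed-like cells passed the 25% limit.

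Among the mitochondrial genes, 6 of 13 were lower in HSC-like cells, led by mt-Nd2 at 1675 and 1187 CPM (log2 -0.50) and mt-Nd4 (-0.42). In lymphoid-primed-like cells 3 were lower (mt-Nd2 at -0.40, mt-Atp6 at -0.35, mt-Nd4 at -0.34) and in megakaryocyte-primed-like cells 5, led by mt-Atp6 at -0.39 and mt-Co3 at -0.37. In neutrophil-primed-like cells none of the 12 measured was called in either direction, and their ratios ran from -0.19 to 0.20. Of the mitochondrial genes measured in all 4 classes, 8 of 12 had a ratio below 1 in each of them, against 18.9% of 4083 genes. Of the nuclear subunits, 58 of 76 had a ratio above 1 in each, against 23.4%.

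**Figure D3:**
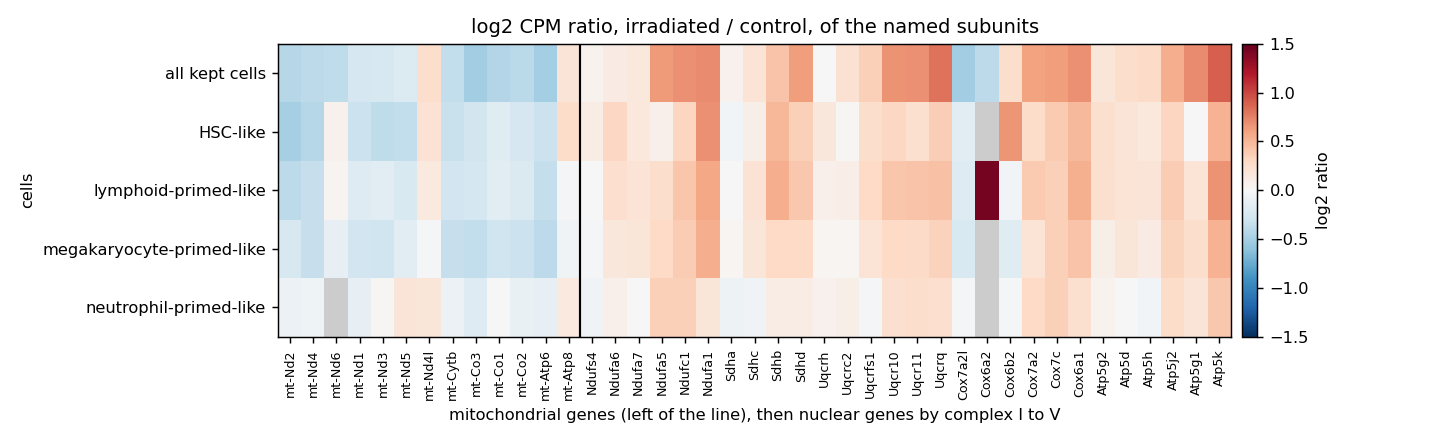
Colour gives the log2 CPM ratio of irradiated to control for the 13 mitochondrial genes and the named nuclear subunits (columns) in all kept cells and in 4 classes (rows); grey marks a mean under 20 CPM. Red dominates right of the line and blue left of it, with Cox6a2 in lymphoid-primed-like cells at 1.43 as the deepest red and neutrophil-primed-like cells the palest row.

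Of the RNAs listed for quality and handling, 3 of 5 measured were lower and 1 higher in HSC-like cells, 4 lower and 1 higher in both lymphoid-primed-like and megakaryocyte-primed-like cells, and none of 4 was called in neutrophil-primed-like cells. The shares of all genes called in these classes are those given above. Their part in the class values was not tested. The clusters without a name went the same way in their ratio of mitochondrial to nuclear UMIs. One led by Nusap1 and Top2a was at 1.55 and 1.01 and the Irf8 cluster at 1.49 and 1.00. Another, led by Ung and Otos, of 998 and 609 cells, was at 1.72 and 1.23. The small H2-Eb1 cluster was at 1.71 and 1.26. Erythroid-primed-like cells, with 50 control cells and 483 irradiated cells, stood at 1.48 and 1.104. B lineage-like cells, at 112 and 24 cells, stood at 1.13 and 0.953 and T/NK lineage-like cells, at 50 and 58 cells, at 1.65 and 1.27.

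The shift was spread over cells rather than held by a few. Per cell, the median ratio of mitochondrial to nuclear subunit UMIs was 1.98 in the control and 1.09 in the irradiated library. More mitochondrial than nuclear subunit UMIs were found in 96.7% of control cells and 58.3% of irradiated cells. In HSC-like cells these shares were 99.9% and 97.8%, and the middle 50% of cells ran from 2.07 to 2.84 in the control and from 1.42 to 2.00 in the irradiated library, so that the quartile ranges did not overlap. In neutrophil-primed-like cells they did, from 0.709 to 1.07 and from 0.587 to 0.933.

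**Figure D4:**
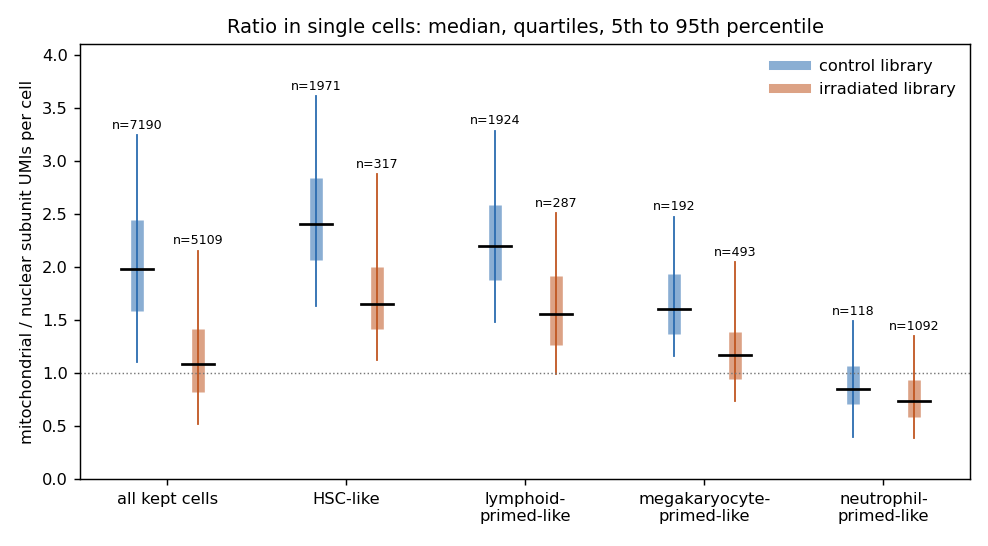
Ratio of mitochondrial to nuclear subunit UMIs in single cells, by class and library: black line median, thick bar quartiles, thin line 5th to 95th percentile, with the number of cells above. Medians are 2.41 and 1.65 in the 2 libraries in HSC-like cells and 0.851 and 0.742 in neutrophil-primed-like cells.

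Depth moved with the ratio within each library. Across control cells, Spearman's rho between a cell's total UMIs and its nuclear share was 0.54 and its mitochondrial share -0.43 (7190 cells), and across irradiated cells 0.66 and -0.43 (5109 cells); the points share a library and each share has the same total below it. Cells were therefore set side by side at like depth, with all classes pooled in each range. The classes differ in depth and in their numbers between libraries, so depth and the mix of cells cannot be told apart across these ranges. Below 10000 UMIs the ratio was 2.49 and 1.88 (log2 -0.40), between 10000 and 20000 it was 2.097 and 1.52 (-0.46), and between 30000 and 40000 it was 1.503 and 0.969 (-0.63). At 60000 or more it was 1.37 in 64 control cells and 0.807 in 267 irradiated cells. The irradiated library was lower in every one of the 6 depth ranges.

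**Figure D5:**
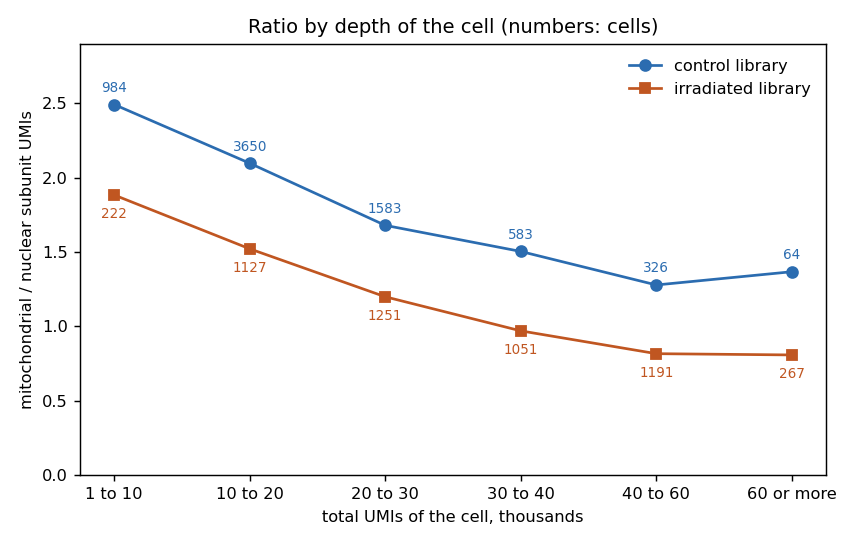
Ratio of mitochondrial to nuclear subunit UMIs, summed over cells of each range of total UMIs, for the control (blue circles) and irradiated library (orange squares); small numbers give cells. Both lines fall with depth up to 60000 UMIs, and the irradiated line lies below the control line in each range.

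The ratio was also lower at each called phase of the cell cycle, at 2.26 and 1.39 in cells called G1, 1.65 and 0.960 in S and 1.502 and 0.932 in G2M. In HSC-like cells called G1, which number 1598 and 250, it was 2.46 and 1.72 (log2 -0.51). Phase calls rest on the same UMIs and differ in depth.

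Other genes of mitochondrial energy metabolism were listed from outside the name rule. Beside the counts below stand the shares over all 5247 measured genes, 21.1% higher and 20.4% lower. Of the import machinery, which brings nuclear-encoded proteins into the organelle, 16 of 18 measured genes were higher and none lower, with a median log2 ratio of 0.44, led by Tomm40, the import pore, at 90.2 and 149 CPM (0.72) and the matrix co-chaperone Grpel1 at 90.4 and 146 (0.69). Of electron carriers and ubiquinone synthesis, 5 of 8 were higher, with Cycs, cytochrome c, at 264 and 457 CPM (0.79) and Etfb, of the electron transfer flavoprotein, at 245 and 401 (0.71). Of citric acid cycle and pyruvate dehydrogenase genes, 7 of 19 were higher and none lower, with citrate synthase Cs at 43.3 and 67.1 CPM (0.63) and fumarase Fh1 at 72.5 and 110 (0.60). Of carriers and porins, 4 of 10 were higher, with the ATP synthase inhibitor Atpif1 at 637 and 969 CPM (0.61) and the ADP/ATP carrier Slc25a5 at 603 and 838 (0.47).

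Genes that act on mitochondrial DNA and its RNA had a median log2 ratio of 0.10. The median was 0.37 for electron carriers, 0.22 for citric acid cycle genes and 0.24 for carriers and porins. The shares over all measured genes, 21.1% higher and 20.4% lower, apply to the counts here as well. Of 8 measured, 3 were higher and none lower, with Slirp, a partner of mitochondrial mRNA, at 104 and 172 CPM (log2 0.73) and the exoribonuclease Pnpt1 at 17.97 and 29.3 (0.70). Tfam, which packages mitochondrial DNA and starts its transcription, stood at 60.8 and 56.0 CPM (-0.12), and Tfb2m at 22.4 and 22.0 (-0.03). Of the nuclear regulators 4 were measured and 1 was lower, Gabpb1, a GABP subunit, at 36.5 and 27.1 CPM (-0.43), while Nrf1 stood at 26.3 CPM in both libraries (-0.00). Of assembly factors outside the name rule 5 of 17 were higher and 1 lower: the copper chaperone Cox17 stood at 123 and 190 CPM (0.62) and Uqcc2 at 202 and 287 (0.51), and Ttc19 of complex III at 32.8 and 23.2 (-0.50).

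Within classes the import and citric acid cycle lists had fewer calls than over all cells. Import genes had 1 of 18 higher and 1 lower in HSC-like cells, while 7 of 18 were higher in lymphoid-primed-like cells, 1 of 18 in megakaryocyte-primed-like cells and 1 of 18 in neutrophil-primed-like cells, with none lower. In HSC-like, megakaryocyte-primed-like and neutrophil-primed-like cells the share of import genes called higher was no larger than that of all genes, at 8.35%, 6.48% and 5.76%, and in lymphoid-primed-like cells that of all genes was 10.9%. Their medians in the 4 classes were 0.17, 0.28, 0.14 and 0.13. Citric acid cycle genes had 0, 3, 3 and 1 of 19 higher in the same order of classes.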

How the data were processed

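The deposited values are raw UMI counts per gene and cell barcode, made by the authors with Cell Ranger 2.1.1 on mm10, per the submitters' processing notes; the matrix headers name software version 3.1.0, and which of these made the files is not given in the sources used here. Libraries were single cell 3' v2, per the labels. Members and lists were chosen with earlier results of these data known. Cells with at least 1000 UMIs, 500 genes and at most 10% mitochondrial UMIs were kept; Scrublet called 0 and 20 doublets (0.368% of the irradiated cells), which is too few to have worked, so doublets were examined by leaving out the top 6% of its score. The mitochondrial limit bears directly on the mitochondrial members, and 309 and 308 cells exceeded it.

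UMIs were summed per library and class and scaled to CPM. With 1 library a group there is no test: a gene is called where the larger CPM exceeds the smaller by 25%, at a mean of 20 CPM. Intervals (95%) are exact Clopper-Pearson intervals for gene and set ratios, and normal intervals on the log scale, where an exact one had been planned, for the mitochondrial to nuclear ratio.

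Cells were clustered with scanpy 1.11.5 and leidenalg 0.10.2 (2000 variable genes, 30 components, 15 neighbours per library, resolution 1). A cluster was named with at least 3 markers of a list among its 50 genes of highest fold, detected in at least 10% of its cells, if no other list had more among the top 10. The number was first 25, and was raised to 50 after seeing which clusters it named; the 25-gene naming is an alternative. Also set after seeing the data were the counts of mitochondrial genes called, the score limit for naming single cells by their own markers, the smallest number of cells for an alternative, the control cluster mix, the Cox6a2 values with 30 neighbours and the limit of 1% on mature neutrophil UMIs. The cluster led by H2-Eb1 met the monocyte/dendritic list with 3 markers and is called here by its leading genes. Phases were called by scanpy on cells thinned to 5000 UMIs.

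Named genes are all 13 mitochondrial genes, the 3 highest and 3 lowest nuclear members of each complex, the paired tissue forms, and up to 2 genes of each list with the largest change; Tfam, Tfb2m, Nrf1, the other members and genes given for single classes were chosen after their values were seen. Coding lengths and mitochondrial positions come from GENCODE M21 and promoters from RefSeq.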

Additional observations from a re-analysis of the deposited data

How the results depend on the processing

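No alternative reversed a direction of the summed values. All values here are log2 ratios of irradiated to control, in the order mitochondrial sum, nuclear sum and mitochondrial to nuclear ratio where 3 are given. Over all cells, no limit on the mitochondrial share gave -0.40 for the mitochondrial sum and -0.81 for the ratio, every deposited barcode -0.40 and -0.81, and a limit of 20% -0.43 and -0.84. A limit of 5% gave -0.39, 0.38 and -0.77. Scaling to nuclear genes gave -0.45 and 0.40, and scaling to the median ratio of all genes -0.22 and 0.63, with 0 nuclear subunits lower and, of the mitochondrial genes, 2 higher and 0 lower. Equal weight for each cell gave -0.41, 0.41 and -0.82, with 1 nuclear subunit lower, and so did thinning to 5000 UMIs (-0.41, 0.41, -0.82 and 1). Cells of 10000 to 30000 UMIs gave -0.28, 0.27 and -0.55, with 25 nuclear subunits higher, 0 lower and 2 mitochondrial genes lower. The cluster mix of the control library, chosen after seeing the data, gave -0.28, 0.26 and -0.54, with 21 higher, 0 lower and 3 mitochondrial genes lower. Without the 6% of highest doublet score the sums were -0.44 and 0.41, and with assembly factors the nuclear sum was 0.41 and the ratio -0.85. At a CPM ratio of 1.1, 2 mitochondrial genes were higher; at 1.5, 14 nuclear subunits were higher, 0 lower and 0 mitochondrial genes lower; without the CPM filter 6 nuclear subunits were lower. For the class ratios the order is HSC-like, lymphoid-primed-like, megakaryocyte-primed-like and neutrophil-primed-like. No mitochondrial limit gave -0.61, -0.38, -0.52 and -0.32, 30 neighbours from all cells -0.36, -0.55, -0.46 and -0.49, and equal weights -0.48, -0.50, -0.45 and -0.21. Thinning gave -0.50, -0.50 and -0.48 in the first 3 classes, cells of 10000 to 30000 UMIs -0.55, -0.46 and -0.44, and cells called G1 -0.51, -0.44 and -0.50. Too few neutrophil-primed-like cells were left for the last pair of settings. Resolution 0.5 gave -0.73 for HSC-like, -0.48 for lymphoid-primed-like and -0.29 for neutrophil-primed-like cells, and left no megakaryocyte-primed-like class. Resolution 2 gave -0.56 for lymphoid-primed-like, -0.55 for megakaryocyte-primed-like and -0.25 for neutrophil-primed-like cells. Naming each cell by its own markers gave -0.69 for HSC-like, -0.63 for megakaryocyte-primed-like and -0.41 for neutrophil-primed-like cells. Chosen after seeing the data, names from the top 25 genes gave -0.56 for HSC-like cells, and leaving out cells of 1% or more mature neutrophil UMIs gave -0.21 for neutrophil-primed-like cells. The cause of these shifts was not tested. No paired analysis was possible because each group has 1 library. Counting error is small at these depths, and the number of libraries sets the limit.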
